A study of Mus musculus with 28 samples.

Results

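The regions described here were accessible stretches of chromatin that appeared in the peak list of Müller cells from diabetic db/db mice, had no counterpart in the list from control mice, and carried a signal in the upper range of the db/db list. They numbered 2766 of 63598 merged db/db regions on the 19 autosomes. The study compared the retinal glia of diabetic and non-diabetic mice, and its accessibility assay was ATAC-seq, in which a transposase cuts and tags DNA that is not packed into nucleosomes. Müller cells had been taken from the retina by magnetic sorting at 6 months of age. The control group was labelled WT. The paper states that both wild-type and heterozygous db/+ mice served as controls, and which of them gave the control list is not stated. The db/db mice were homozygous for the Lepr db allele, which removes signalling through the leptin receptor and leads to obesity and diabetes, on the BKS background, from stocks of 2 breeders. Animals of both sexes entered the study, and some photoreceptor DNA in a sorted Müller fraction could not be avoided. The labels give 2 ATAC-seq replicates per genotype, but 1 peak list per genotype was analysed here, attached to replicate 1. Whether a list was called on 1 replicate or on pooled reads is not given in the sources used here. No comparison below therefore has a replicate check, no p-value is given, and every interval covers counting error only. Presence in one list and absence from the other describes these lists, and cannot be told apart from a difference in depth, which is unknown. The db/db list held 42 regions within 5 kb of 10 Müller cell marker genes. It held 46 at 8 bipolar genes, 27 of them at Prkca alone, 21 at 10 rod genes and 24 at 10 microglial genes. There were 28 at 9 vascular genes, 27 at 12 amacrine, ganglion and horizontal genes, and 25 at 5 astrocyte genes. Oligodendrocyte and pigment epithelium genes had 12 each, and cone genes 5. These counts were not adjusted for gene length. Open chromatin near markers of other retinal cells was thus listed as well. The sort took out CD11b-positive microglia and CD31-positive endothelial cells as fractions of their own, and Müller cells by CD29. The part of other cells in the results was not tested.

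Müller cells are the main glia of the retina. They span its whole thickness, take up neurotransmitter, buffer potassium and feed neurons, and they respond to diabetes and injury with gliosis. Open chromatin marks promoters, where transcription starts, and distal elements such as enhancers in introns and between genes. Promoters rich in the dinucleotide CpG tend to be open in many cell types, whereas CpG-poor promoters and distal elements differ more between cell types and states.

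The region set was selected on measured values. Overlapping rows of a list were merged and took the row with the highest signal, which is the fold enrichment of reads over background. A db/db region was kept if it overlapped no control region by even 1 bp and if its signal exceeded 8.58, the median of all merged db/db regions. Of all db/db regions, 31.4% had no control counterpart, and of the 31799 above the median, 8.70% had none. The reverse case was rarer. Of 22599 control regions above their own median, 0.965% had no db/db counterpart, in lists that held 63598 db/db and 45198 control regions. The signals of the 2766 regions ran from 8.59 to 30.8, with a median of 9.87 and quartiles of 9.17 and 11.1. The 3 weakest lay in introns nearest to Mir7225, Sh3tc1 and Dock9, at 8.59 each. The 3 strongest db/db-only regions that fell short of the limit, nearest to Spock1, Pdzrn4 and Gm12065, stood at 8.58 each. Together the 2766 regions covered 1634 kb, and single regions were 199 to 2287 bp wide.

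Promoter windows of the db/db-only regions held fewer CpG than those of shared regions of equal signal. Here too, db/db only means absent from the control list. The region at Rpl4, for one, lay 0.09 kb from a control region. RefSeq promoter windows, 250 bases before to 50 bases after a start site, held the summit of 68 of the 2766 regions. The median window of these 68 had 10 CpG and 55.5% G and C. Shared regions, weighted to the same deciles of signal, had 22 CpG and 63% G and C in the median window, over 6623 windows. Of the 68 windows, 31 had under 10 CpG, a share of 45.6% (95% Wilson interval 34.3 to 57.3), against 14.7% of the weighted shared windows and 56.0% of all 31396 autosomal windows. When shared windows were also matched on the decile of their −log10 p, their median was 17 CpG, and 27.7% had under 10. Their median G and C was then 57.7%, and the interval of the ratio, 0.942 to 1.017, included 1. The 6 windows with the highest signal at protein-coding genes are printed next as examples, with 8 to 20 CpG where all 68 spanned 0 to 43, followed by 2 shared windows that have the median number of CpG of the weighted shared windows and a like signal. The bases are those of RefSeq for build GRCm38.p6, 5′ to 3′ on the gene's strand, with CpG in capitals.
Ddx19b (db/db only): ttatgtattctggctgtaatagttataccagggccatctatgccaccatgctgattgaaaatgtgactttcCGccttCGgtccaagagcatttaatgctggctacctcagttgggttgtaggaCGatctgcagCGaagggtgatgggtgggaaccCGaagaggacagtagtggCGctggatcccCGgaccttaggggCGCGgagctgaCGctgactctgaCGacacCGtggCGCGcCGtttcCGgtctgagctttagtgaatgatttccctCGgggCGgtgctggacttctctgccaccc
Filip1 (db/db only): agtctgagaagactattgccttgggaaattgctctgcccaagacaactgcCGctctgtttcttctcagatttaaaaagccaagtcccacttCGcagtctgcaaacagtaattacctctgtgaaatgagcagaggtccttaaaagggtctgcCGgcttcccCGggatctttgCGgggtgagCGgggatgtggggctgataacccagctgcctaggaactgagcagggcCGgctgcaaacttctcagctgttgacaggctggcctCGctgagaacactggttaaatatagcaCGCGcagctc
Ccdc39 (db/db only): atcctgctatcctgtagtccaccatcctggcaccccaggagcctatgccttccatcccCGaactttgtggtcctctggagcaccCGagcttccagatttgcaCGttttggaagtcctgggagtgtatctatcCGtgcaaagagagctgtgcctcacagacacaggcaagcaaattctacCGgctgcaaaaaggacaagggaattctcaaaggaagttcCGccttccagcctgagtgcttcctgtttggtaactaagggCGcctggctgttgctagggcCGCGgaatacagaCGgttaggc
Zfp759 (db/db only): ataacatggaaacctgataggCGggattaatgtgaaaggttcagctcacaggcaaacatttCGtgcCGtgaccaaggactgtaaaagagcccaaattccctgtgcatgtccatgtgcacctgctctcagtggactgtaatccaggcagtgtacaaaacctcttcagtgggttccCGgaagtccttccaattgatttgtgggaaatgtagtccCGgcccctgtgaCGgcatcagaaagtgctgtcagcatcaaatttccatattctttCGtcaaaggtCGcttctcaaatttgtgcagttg
Myg1 (db/db only): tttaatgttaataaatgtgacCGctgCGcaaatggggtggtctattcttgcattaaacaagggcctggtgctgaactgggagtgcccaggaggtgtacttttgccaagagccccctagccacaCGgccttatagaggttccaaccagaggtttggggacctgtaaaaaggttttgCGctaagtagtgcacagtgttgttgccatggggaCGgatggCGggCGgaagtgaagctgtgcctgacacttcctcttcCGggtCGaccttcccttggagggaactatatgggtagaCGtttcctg
Gpn2 (db/db only): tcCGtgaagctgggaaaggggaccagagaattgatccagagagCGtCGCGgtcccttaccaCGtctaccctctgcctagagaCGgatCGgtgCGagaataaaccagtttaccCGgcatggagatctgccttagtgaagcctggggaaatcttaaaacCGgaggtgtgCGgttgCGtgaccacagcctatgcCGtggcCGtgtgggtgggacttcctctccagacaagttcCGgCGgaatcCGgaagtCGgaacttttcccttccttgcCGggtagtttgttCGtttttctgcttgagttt
Hmgxb4 (shared): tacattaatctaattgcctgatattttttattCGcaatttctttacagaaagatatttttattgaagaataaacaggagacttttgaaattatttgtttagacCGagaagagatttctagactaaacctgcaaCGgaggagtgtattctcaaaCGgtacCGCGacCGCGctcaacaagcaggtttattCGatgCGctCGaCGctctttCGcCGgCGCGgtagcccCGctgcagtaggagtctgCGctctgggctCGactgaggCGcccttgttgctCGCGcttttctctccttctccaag
Chek1 (shared): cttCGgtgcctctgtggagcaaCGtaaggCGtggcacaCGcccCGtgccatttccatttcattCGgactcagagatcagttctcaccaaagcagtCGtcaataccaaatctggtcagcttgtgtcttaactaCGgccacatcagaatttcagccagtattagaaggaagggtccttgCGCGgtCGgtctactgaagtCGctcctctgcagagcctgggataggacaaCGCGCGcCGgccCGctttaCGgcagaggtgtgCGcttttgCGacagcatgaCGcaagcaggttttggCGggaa
Ddx19b, which encodes an RNA helicase of mRNA export, had the strongest of these windows. Its region at chr8:111027309-111028077 had a signal of 17.4, its summit 38 bases from the RefSeq start, and 18 CpG in the window, and the nearest control region was 5.48 kb away. The window of Filip1, which encodes a partner of filamin A, lay at chr9:79977833-79978132 on the minus strand, with a signal of 15.1 and 10 CpG. Ccdc39, needed for the assembly of motile cilia, had a signal of 14.1 and 10 CpG at chr3:33844261-33844560 on the minus strand. The zinc finger gene Zfp759 had the fewest CpG of the 6, with 8, at chr13:67127978-67128277 on the plus strand and a signal of 13.5. The window of Myg1 at chr15:102331459-102331758 on the plus strand had 10 CpG and a signal of 12.7. That of Gpn2 at chr4:133584123-133584422 on the plus strand had 20 CpG, the most of the 6, and a signal of 12.3. The shared windows of Hmgxb4, at chr8:74993400-74993699 on the plus strand, and of Chek1, a kinase of the DNA damage checkpoint, at chr9:36726609-36726908 on the minus strand, had 22 CpG each at db/db signals of 13.8 and 13.7. These 2 were chosen at the shared median, so that the 6 and the 2 are shown as examples and not as a comparison. Of the 68 db/db-only windows, 13 had at least 22 CpG, among them Tnfrsf11a with 43 and Rapgef4 with 40.

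Short sequences linked to transcription factors were searched for on both strands of the 68 windows. The E-box CANNTG was in 52 of the 68, or 76.5% (difference from the weighted shared windows 5.70 to 26.4 percentage points), and in 72.2% of all windows. AGAACA, a half-site of the glucocorticoid receptor, was in 15 of the 68, or 22.1% (difference 1.95 to 21.9 percentage points), and in 19.0% of all windows. For the other 11 strings the interval of the difference included 0. They were GGATTA for CRX and OTX, TGANTCA for AP-1, TTGGCA for NFI, ACAAT for SOX, GGAATG for TEAD, TTGCNNAA for CEBP, TGTGGT for RUNX, GAGGAAG for PU.1, CCGGAA for ETS, CCANNAGNG for CTCF and TAATTA for homeodomain factors. GAGGAAG holds the core GGAA that is also in CCGGAA. Both strings that stood above the shared windows were about as frequent in the windows of all genes, whose median was 7 CpG. A match of letters is not a binding site, and no difference was adjusted for the 13 strings searched.

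**Figure D1:**
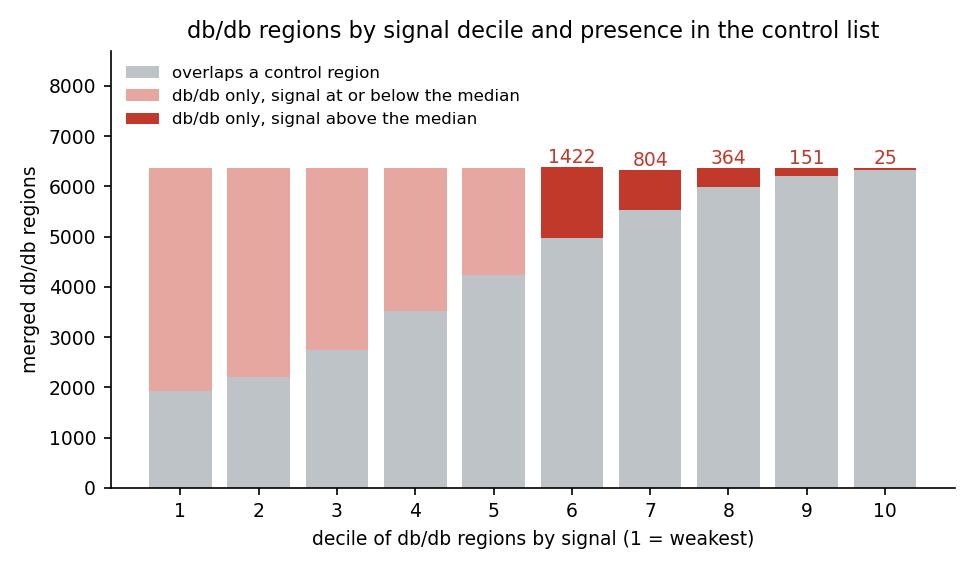
Merged autosomal db/db regions in each decile of the db/db list by signal, from weakest (1) to strongest (10), divided into regions that overlap a control region (grey) and regions that do not (pale and dark red, below and above the median signal). The dark red counts are the 2766 regions described, which fall from 1422 in decile 6 to 25 in decile 10.

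The db/db-only regions thinned out steadily with rising signal, as the bars by signal decile show. They made up 69.8% of the weakest decile of the db/db list and 22.3% of decile 6, the first above the median. In deciles 7, 8 and 9 the share was 12.7%, 5.72% and 2.37%, and in the strongest decile it was 0.393%, or 25 of 6359 regions. Shared regions of decile 6 had a median rank in the control list at its percentile 40.5, with 1% of them below percentile 12.6. In decile 10 the median control percentile was 92.8 and the lowest 1% lay below percentile 69.2. These percentiles exist only for regions that the control list holds. No control value exists for a region that is not in the control list, so no fold difference is given.

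At equal signal the db/db-only regions had lower −log10 p, were narrower and had fewer summits than shared regions. Their median −log10 p was 88.4 (quartiles 75.4 and 108), against 139 for shared regions of the same signal deciles. The lowest value was 65.4. The limit on signal also keeps −log10 p up, so this floor is not a separate result. The median width was 562 bp against 772 bp. More than 1 summit row was merged in 29.1% of them, against 53.5% of shared regions. A signal that was a whole multiple of one step, 0.0784 in the db/db list, was found in 59.7% of the db/db-only regions, against 20.8% of shared ones, where 4% of evenly spread values would fall within the tolerance of 0.02 of a step. With −log10 p matched as well, 52.0% of shared regions had such a signal, a difference of 7.75 percentage points. Such values can arise when whole read counts are divided by one constant background instead of a local one. The control list had a step of 0.0873, which is 1.11 times that of the db/db list. In the control list 19.1% of regions were on a whole step, and in the db/db list 25.8%. The part of depth in these steps was not tested. Divided by the db/db step and rounded, the signals of all 2766 db/db-only regions ran from 110 to 393, whether or not they were on a whole step. The plot of signal against −log10 p shows the db/db-only regions along the lower edge of the cloud. The score column was at its maximum of 1000 in 88.9% of them, against 95.9% of shared regions. The lowest score in both lists was 540, which equals the score that a method of comparing replicates, the irreproducible discovery rate, assigns at its limit of 0.05. Whether the lists were filtered on that rate is not given in the sources used here, and its part in the absence of these regions from the control list was not tested.

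**Figure D2:**
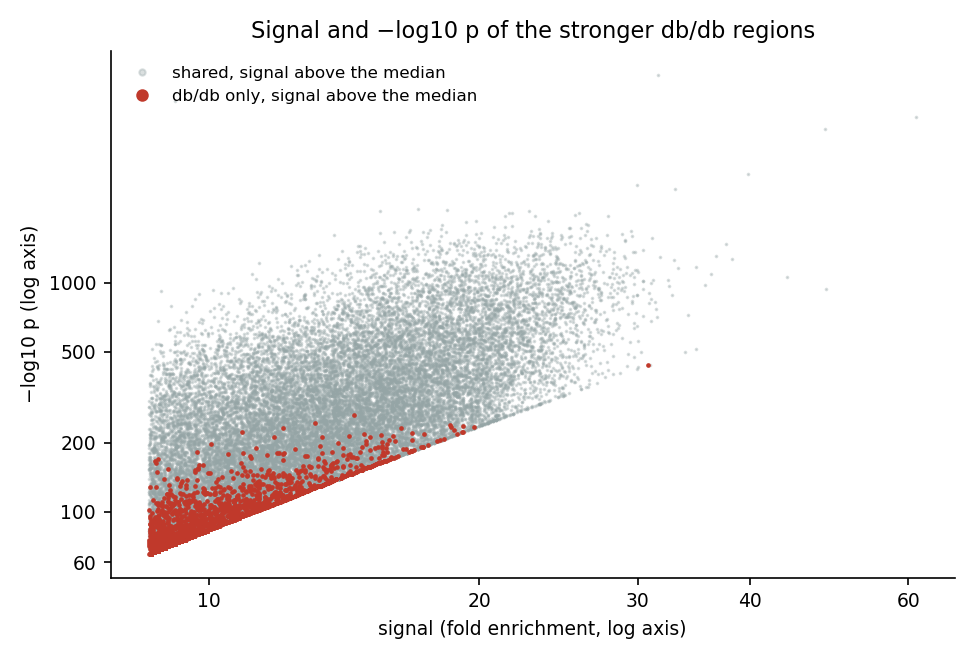
Signal (horizontal, fold enrichment, log axis) and −log10 p (vertical, log axis) of each db/db region above the median signal, with 2766 db/db-only regions in red over 29033 shared regions in grey. The red points follow the lower edge, where −log10 p is least for a given signal, with medians of 88.4 for db/db-only and 139 for shared regions of the same deciles.

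Fewer of the db/db-only regions lay at a transcription start site. In the GENCODE M21 annotation of mm10, 320 of the 2766 had their summit within 1 kb of a start site, a share of 11.6% (95% Wilson interval 10.4 to 12.8), against 28.3% of shared regions of the same deciles. The difference of −16.8 percentage points had an interval of −18.2 to −15.4. Introns held 1254 (45.3%, against 37.8%), and 1076 lay outside genes (38.9%, against 30.5%). Exons away from a start site held 116 (4.19%, against 3.40%), a difference whose interval, −0.0171 to 1.60 percentage points, included 0. Coding sequence held 59 of the summits, or 2.13%, against 2.09% of shared regions. The median distance to the nearest start site was 12672.5 bp (95% interval 11927 to 13647), against 7157 bp, a ratio of 1.77. Over 50 kb from any start site lay 425 regions, or 15.4%, against 10.2%.

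The share at start sites was lower than in shared regions in each of the 5 deciles. It was 12.6% against 24.9% in decile 6, 11.2% against 28.8% in decile 7, 8.79% against 32.6% in decile 8 and 9.27% against 42.5% in decile 9. In decile 10 it was 20% against 59.98%, where the 5 of 25 regions gave an interval of 8.86 to 39.1%. Shared regions thus gathered at start sites as signal rose, and the db/db-only regions did not up to decile 9. The start sites at issue were those of protein-coding genes, at 7.74% against 24.0%. Start sites of other genes had 3.83% of the db/db-only regions and 4.32% of shared ones, with an interval of the difference from −1.28 to 0.302 percentage points. The nearest start site belonged to a pseudogene for 499 regions, or 18.04%, against 10.6%. With −log10 p matched as well it was 16.2% of shared regions, a difference of 1.81 percentage points (0.0820 to 3.53). Pseudogenes are copies that share sequence with other loci, and reads from them can be misplaced. The part of read placement was not tested.

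**Figure D3:**
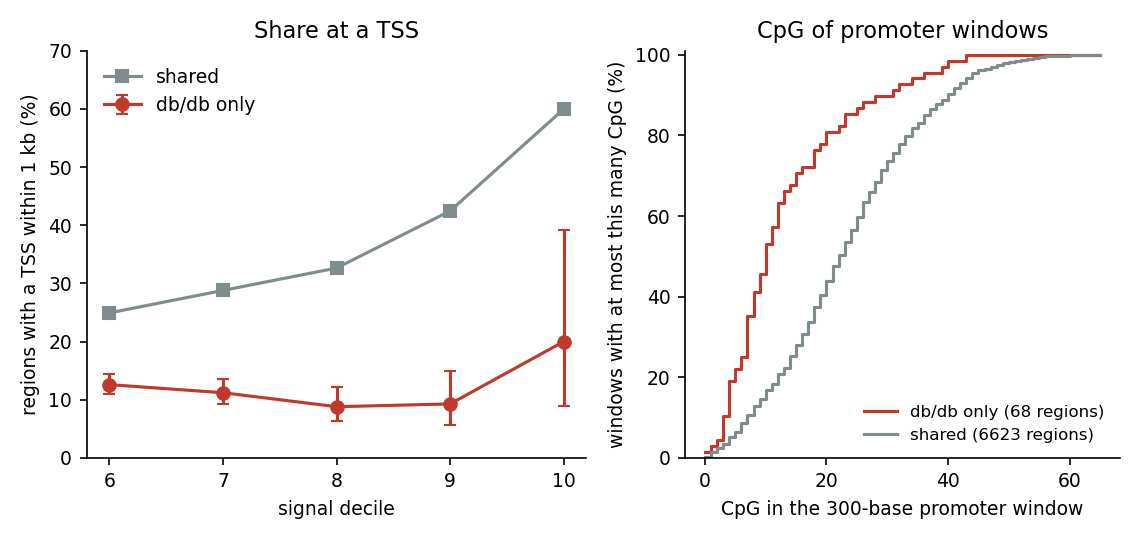
Left, percentage of regions with a start site within 1 kb in each upper signal decile, for db/db-only regions (red, 95% Wilson intervals) and shared regions (grey), from 12.6% against 24.9% in decile 6 to 20% against 59.98% in decile 10. Right, cumulative percentage of 300-base promoter windows by their number of CpG for 68 db/db-only and 6623 shared regions weighted to the same deciles, with medians of 10 and 22.

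Most of these differences were smaller when −log10 p was matched as well as signal, a comparison chosen after the values were seen. Against shared regions of the same decile of signal and the same decile of −log10 p, the share at start sites was lower by 2.52 percentage points (interval −3.97 to −1.06), at 11.6% against 14.1%. The share outside genes changed its direction, at 38.9% against 41.9% (difference −5.23 to −0.803 percentage points). The share in introns stayed higher, by 4.79 percentage points (2.55 to 7.03). The ratio of median distances to a start site was 1.08 (1.02 to 1.16). With width matched in place of −log10 p, the share at start sites differed by −6.98 percentage points. The plot of the 4 matchings gives these values side by side. In a list of this kind, signal and −log10 p both come from the same reads, and which of them is the fitter base of comparison was not tested.

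**Figure D4:**
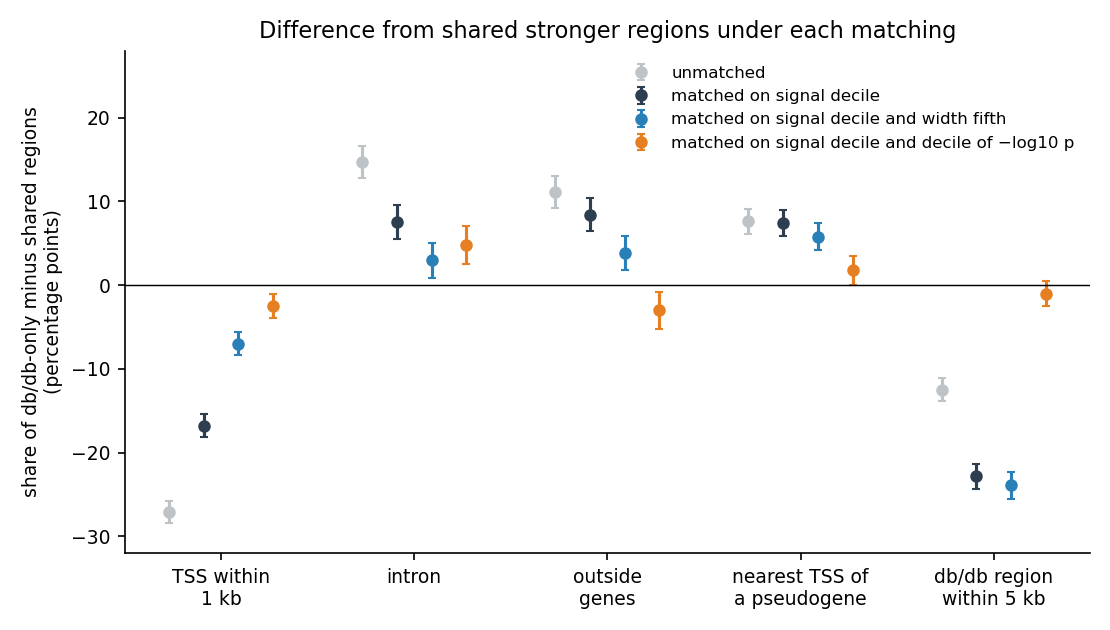
Difference in the share of db/db-only and shared stronger regions with each property (percentage points, points with 95% intervals), unmatched and under 3 matchings. For start sites it shrinks from −27.1 unmatched to −16.8 with signal matched and −2.52 with −log10 p matched too, and outside genes it changes from 8.40 to −3.02.

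With signal alone matched, the db/db-only regions lay farther from other db/db regions than shared regions did. The nearest other db/db region of any kind was a median of 13768 bp away (quartiles 7156 and 27816), against 7562 bp for shared regions of the same deciles. Another db/db region lay within 5 kb of 356, or 12.9%, against 35.7% of shared regions. With −log10 p matched as well, that share was 13.9% of shared regions, and the interval of the difference, −2.50 to 0.474 percentage points, included 0. The nearest control region was a median of 19047 bp away (quartiles 9616 and 41364). It lay within 100 bp of 4 regions, within 500 bp of 17, within 5 kb of 185 (6.69%) and within 50 kb of 2214 (80.04%). The selection itself excludes overlap with a control region, and no comparison set was used for these control distances.

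Clustering among themselves was slight. The next db/db region along the chromosome was also one of the set for 156 of 2765, or 5.64%, against 4.21% of shared regions, a difference of 1.43 percentage points (0.511 to 2.35). With −log10 p matched as well it was 0.195 percentage points (−0.851 to 1.24). Of the 2766 regions, 2461 stood alone between regions of other kinds, 286 formed 143 pairs, 15 formed 5 runs of 3, and 4 formed 1 run of 4. Of 2304 windows of 1 Mb that held a stronger region, 771 held none of the set, 744 held 1, and none held more than 6. The 7 windows with 6 included one at 62 to 63 Mb of chromosome 3, where they were 6 of 12 stronger regions, and one at 42 to 43 Mb of chromosome 16, where they were 6 of 17. By chromosome the share of stronger regions that were db/db-only ran from 7.23% on chromosome 7 (6.18 to 8.44) to 10.1% on chromosome 12 (8.69 to 11.8). For 18 of the 19 autosomes the interval included the share over all, 8.70%.

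The run of 4 was on chromosome 10, at chr10:19167521-19240406, a stretch of 72.9 kb with no protein-coding gene. Its signals were 12.3, 10.2, 16.1 and 10.8 in order along the chromosome. The first lay 538 bp from a start site of the non-coding gene Gm20139 and the last 21.8 kb from one of Gm7213. No control region lay nearer than 25.6 kb to any of them. Among the runs of 3, one lay in Unc79, which encodes a part of a sodium leak channel complex, with signals of 8.62, 8.86 and 9.76, the last of them 0.929 kb from a control region. Another joined Mms22l and Klhl32 on chromosome 4, with signals from 8.94 to 11.0. A run nearest to Mir3966 on chromosome 10 began 23.8 kb after a shared region and had signals from 9.56 to 10.4. The run on chromosome 12 spanned 1296 kb, with all 3 regions within 354 bp of a start site, of Gm49330, Gm48525 and Gm5953, and the nearest control region at least 110 kb away. The last was at Cntn6.

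Cntn6, which encodes an adhesion molecule of the contactin family on neurons, had 3 db/db regions inside the gene, and all 3 were of the set. The region at its start site, chr6:104492515-104493469, had a signal of 12.3 with the summit 75 bp from a start. The second had a signal of 8.86 and the third of 10.0, at 60.2 and 316 kb from the upstream end of the gene. The control list had no region inside Cntn6, and the nearest lay 307 to 623 kb from the 3. Gap43, which encodes a protein of growing axons, had 4 of the set among 5 stronger regions, on a gene of 92.2 kb. They were at 0.004, 20.6, 64.0 and 84.8 kb from the upstream end of the gene, with signals of 10.3, 16.9, 10.0 and 10.3. The fifth stronger region, at 46.0 kb, was shared, with a signal of 18.1 in db/db and 19.0 in control, and it overlapped the only control region in the gene. The maps of both genes and of the run of 4 cover places chosen for their number of db/db-only regions. The other shared region on them, 25.8 kb before the run of 4, had a signal of 7.68 in db/db and 17.2 in control.

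**Figure D5:**
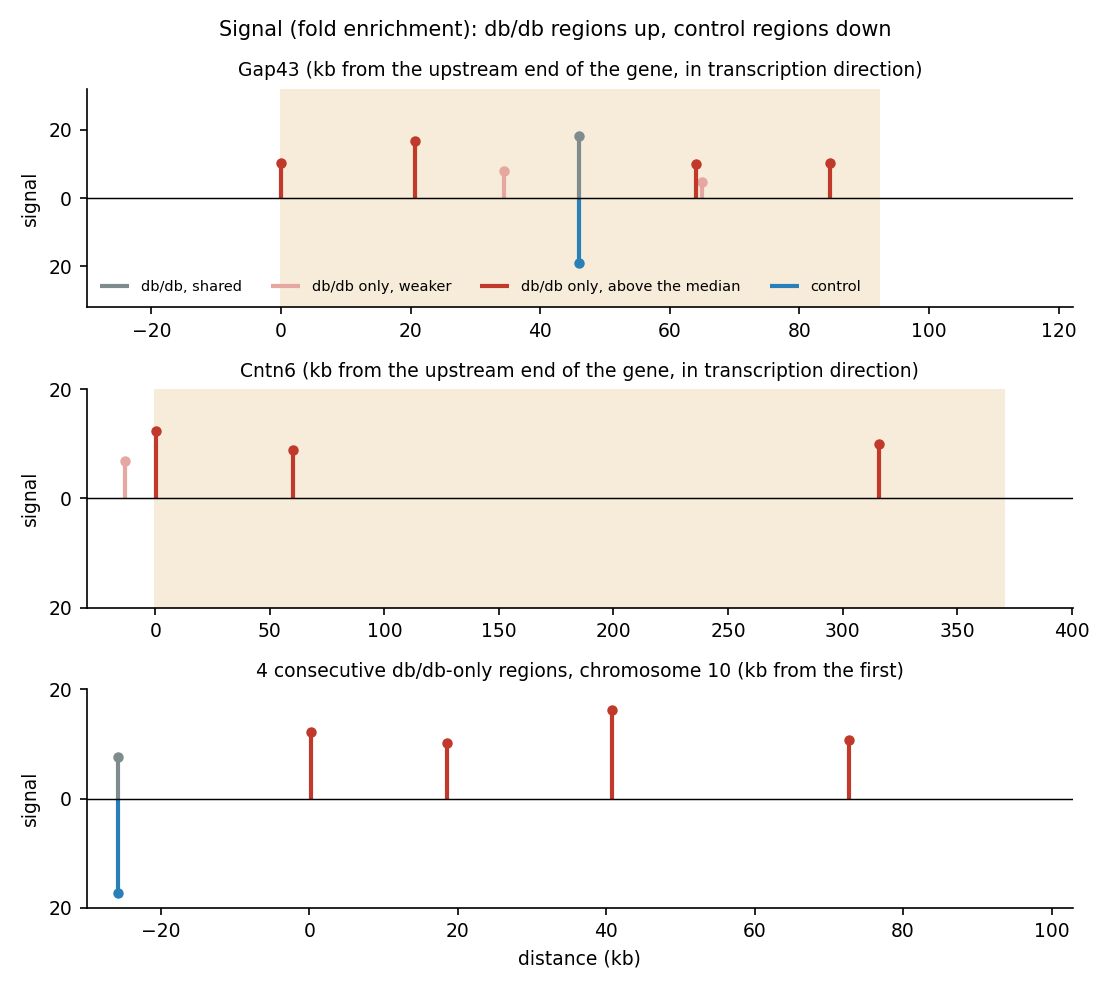
Signal (fold enrichment) of db/db regions (upward) and control regions (downward) against distance in kb, over Gap43, Cntn6 (gene shaded, from the upstream end) and the run of 4 on chromosome 10 (from its first region). Gap43 has 4 dark red db/db-only regions from 10.0 to 16.9 around a shared region of 18.1 (control 19.0), and Cntn6 has 3 and no control region.

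The genes that held most of these regions were long. A protein-coding gene with at least 1 inside had a median length of 114 kb, over 1212 genes, against 34.1 kb for the 7487 genes that held a stronger region but none of the set. Of the 1212, 1037 held 1, 130 held 2 and 45 held 3 or more. The 7 inside Gm20388, the highest count, were spread over an annotated locus of 4435 kb that overlaps many other genes, and were 7 of its 132 stronger regions. Nrxn3, which encodes a presynaptic adhesion receptor, had 5 of 23 stronger regions over 1612 kb, all in introns, with signals of 13.4, 12.1, 13.8, 11.5 and 11.7. Nlgn1, whose product binds neurexins from the postsynaptic side, had 5 of 14 over 906 kb, with signals from 9.27 to 12.9. Dlg2, a scaffold of the postsynaptic density, had 5 of 17 over 1973 kb, with signals from 8.60 to 12.1. Alk, a receptor tyrosine kinase, had 4 of 17 from 8.64 to 13.7. Lpp, a LIM-domain protein of cell adhesions, had 4 of 8 from 8.70 to 12.5. Wwox, a WW-domain oxidoreductase, had 4 of 15 from 8.92 to 11.4. Myt1l, a zinc finger factor of neurons, had 4 of 10 from 8.84 to 10.0. The part of gene length in these counts was not tested.

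Of 3239 protein-coding genes with at least 2 stronger regions inside, 13 had only db/db-only ones, a list picked after its values were seen. Overlapping genes can share regions. After Cntn6, the strongest were in Phldb2, with signals of 9.15 and 14.7 and no control region inside the gene, and in Rimbp2, with 9.09 and 13.9 and 3 control regions inside that overlapped none of these. In Ptpn14, a tyrosine phosphatase, they were 9.76 and 13.3, and in Dnah9, a heavy chain of ciliary dynein, 9.17 and 12.7. In Rad50, a part of the DNA break repair complex, they were 9.72 and 10.0, with no control region inside.

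At protein-coding start sites, 214 of the regions lay within 1 kb of 213 genes, with a median signal of 9.68. The summit was within 100 bp of the start for 99 of them. For 119 of the genes no shared region lay within 1 kb of any of their start sites, and for 94 at least one did, at the same or another start. The highest signals were those of Rpgrip1l (18.1, summit 778 bp from the start), a protein of the ciliary transition zone, Ddx19b (17.4, at 32 bp from the GENCODE start) and the poly-ADP-ribose polymerase gene Tnks (16.8, at 600 bp). Ints4, of the Integrator complex, followed at 15.6, Cmtm7 at 15.5, Ptdss1, a phosphatidylserine synthase, at 15.1 and Filip1 at 15.1. The next were 4930447C04Rik at 14.6, Ccdc39 at 14.1 and Tex14, known from male germ cells, at 13.7. The summit was within 100 bp of the start for Ddx19b, Cmtm7, Filip1 and Ccdc39, at 32, 12, 52 and 21 bp.

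The strongest of all, at chr2:3964428-3964690, was 263 bp wide, lay outside genes 35.4 kb from the lincRNA Gm13191, and had a signal of 30.8 with a −log10 p of 435. It was far above the second, 19.7, near Rps7-ps2 on chromosome 12. Its score was 870, below the maximum of 1000 that the other 14 of the 15 strongest had. The next 2 were near Gm11911 on chromosome 4 (19.2) and Mir344b on chromosome 7 (19.2), with the nearest control region 211 and 432 kb away. Of the 15, those nearest to protein-coding genes were at Havcr2 (18.9), Arhgap39 (18.7), U2surp (18.6), Plxdc2 (18.5), Rpgrip1l (18.1), Ddx19b (17.4) and Heatr5a (17.3). Others were nearest to Gm26028 (19.1), AC154493.1 (18.3) and Gm8807 (17.6). Of the 15, 3 lay within 1 kb of a start site, those of Rpgrip1l, Gm8807 and Ddx19b.

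Over 17 lists of genes known from retinal cell types, glucocorticoid response, gliosis and related pathways, pooled, the db/db-only share was below that at protein-coding genes at large. Of 302 stronger regions within 5 kb of their 167 autosomal genes, 11 were db/db-only, or 3.64% (2.05 to 6.4), where 7.14% of the 21854 stronger regions within 5 kb of any protein-coding gene were. These shares were not matched on signal, though the db/db-only share fell as signal rose. Of the 302, 66 lay at the long annotated locus of Fgfr2 alone. The Müller cell list, with 14 stronger regions among 42 at its 10 genes, had none, with a Wilson upper bound of 21.5%. The list of glucocorticoid receptor targets had 0 of 17 (upper bound 18.4%). The receptor-related genes that the study names had 0 of 24 (upper bound 13.8%). The hypoxia and angiogenesis list had 0 of 10 (upper bound 27.8%). When each region was instead given to the gene with the nearest start site, 10 regions fell to the lists in place of 11, and the Müller cell list and the glucocorticoid receptor targets had 1 each. For other cell types, the rod list had 0 of 4 stronger regions, cone 0 of 1, amacrine, ganglion and horizontal 0 of 13, microglia 0 of 11, vascular 0 of 2, oligodendrocyte 0 of 7 and pigment epithelium 0 of 9, totals too small to tell from the background share. The bipolar list had 1 of 20, in Prkca, a protein kinase C gene, at 9.49.

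The gliosis list had 2 of 20, or 10% (2.79 to 30.1), an interval that includes 7.14%. One was in Gfap, the intermediate filament of reactive glia, at chr11:102892951-102893437 in an exon 3.99 kb from a start of the gene, with a signal of 8.61, close to the limit of 8.58. It was the only stronger one of 2 db/db regions of Gfap, and the nearest control region was 7.35 kb away. The astrocyte list, which also holds Gfap, had this 1 of 14. The other was in an intron of Fgf2, a growth factor, with a signal of 8.69. The growth factor list had 6 of 103, of which 2 were in introns of Egfr (10.5 and 9.48), 1 in an intron of Tgfbr1 (8.86) and 3 in the long annotated locus of Fgfr2 (9.48, 9.80 and 9.57). Those 3 were 1241, 1224 and 174 kb from the nearest start of Fgfr2. The last of them lay 494 bp from a start of Zranb1. The Fgfr2 locus held 66 of the 103 stronger regions. The aldehyde and glutathione enzymes had 1 of 23, at Aldh1a2, an enzyme of retinoic acid synthesis, with a signal of 8.78 and the summit 448 bp from a start. The retinal regulators had 1 of 33, at Atoh7, a factor of retinal ganglion cell birth, with a signal of 9.25 and the summit 35 bp from the start. Atoh7 had no other db/db region and no control region within 5 kb. No value was above 10.5, and the members of each list were too few to compare with the background.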

How the data were processed

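ATAC-seq peak lists of sorted Müller cells, 1 per genotype, were analysed. The submitters' processing notes name build mm10. The aligner, the peak caller and any replicate filter are not given in the sources used here. The lists as deposited by the authors hold a score, a fold enrichment (a linear ratio, called signal here), −log10 p and −log10 q values per row, and the summit offset. They give no read counts, so depth is unknown. Rows were merged by overlap in Python 3.11.15 with pandas 2.3.3 and numpy 2.4.6, keeping the row with the highest signal, and autosomes were used. Start sites, exons and genes came from GENCODE M21, promoter windows from RefSeq (GRCm38.p6). A region took the position of its summit. Shared regions were weighted so that each of the 10 signal deciles had the share it has among the db/db-only regions, and differences have 95% intervals (Wilson for single shares). Scripts were tested on simulated regions. Genes were named by a rule: the 15 highest signals, the 10 highest at protein-coding start sites, runs of 4 or more, the 10 genes with most regions, up to 4 genes per list, and regions next to the signal limit. The runs of 3, the 13 genes with only db/db-only regions and the maps were chosen after their values were seen. The region set, lists and strings were chosen with earlier results of these data known. One gene and 1 region that the rule names are not reported here. RNA-seq samples were not used here.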

Additional observations from a re-analysis of the deposited data

How the results depend on the processing

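Differences below are db/db-only minus shared regions in percentage points, and ratios are db/db-only over shared medians. Of 97 values under 15 alternatives, 58 stayed within the interval of the value reported (counts within 1.5 times), 36 left it and 3 changed direction. The 58 include values that an alternative could not change, such as the share near a control region under another matching. The share at start sites stayed lower in all 13 alternatives that gave it. With the limit at the upper quartile of signal, 319 regions were left, the differences were −31.3 at start sites, 2.04 in exons, 16.4 in introns and 12.9 outside genes, the ratio of start site distances was 3.13, the next-region difference turned to −0.328, and 2.82% had a control region within 5 kb. Ranked by −log10 q, there were 1110 regions, with −8.14 at start sites, 4.90 in introns, 2.24 outside genes (−0.687 to 5.16, which includes 0), a distance ratio of 1.41, a next-region difference that turned to −0.0834, 17.7% within 5 kb of a control region and a width ratio of 0.911. With the db/db list reduced by −log10 p to the length of the control list, there were 947, with −23.2 at start sites, 13.6 in introns, a distance ratio of 2.23, 4.44% within 5 kb and a next-region difference of 0.547 (−0.566 to 1.66, which includes 0). Matched on width too, the values were −6.98, 2.97 and 3.83 at start sites, in introns and outside genes, and the ratios 1.40 for distance and 0.997 for width. Unmatched, they were −27.1, 14.7 and 11.1, with ratios of 2.65 and 0.696. Matched on −log10 p too, which was added after the data were seen, they were −2.52, 4.79 and −3.02, with ratios of 1.08 and 0.963 and a next-region difference of 0.195. Allowing control overlap under 50% of a region gave 10.1% within 5 kb, and protein-coding genes alone a distance ratio of 2.06. The causes were not tested. No paired analysis was possible because 1 list per genotype was analysed and no test was run.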
